A study of Homo sapiens with 6 samples.

Results

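The very wide FOSL2 regions are the FOSL2 binding regions on the autosomes whose deposited interval spans at least 1400 bp. They numbered 1701 of the 73751 autosomal regions in a FOSL2 list of 75704, which is 2.31% of those regions and 5.36% of the bases they cover (2682 kb). A further 28 regions of this width lay on chromosome X and were left out. The members were chosen by the width of the FOSL2 interval itself, so their width, fold enrichment and p-values are given as a description with no test. The comparison classes were the 21751 regions of 600 to 900 bp and, as a closer neighbour in width, the 16912 regions over 900 and under 1400 bp.

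The study mapped FOSL2 and JUNB by chromatin immunoprecipitation and sequencing in HaCaT, a human keratinocyte line that became immortal spontaneously; the labels name no treatment or genetic change. There were 3 libraries for each factor, made with a different antibody for each, and libraries were prepared by ChIPmentation, in which a transposase adds sequencing adapters to the immunoprecipitated chromatin. A single list of regions stood for the 3 libraries of a factor, so replicate errors could not be given for any value, and library depth is unknown. Intervals are 95% Wilson intervals of shares and Newcombe intervals of differences; they cover counting error over regions or genes, which are not replicates of a condition.

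FOSL2 is a FOS-family subunit and JUNB a JUN-family subunit of AP-1, a dimeric transcription factor that binds a short palindromic sequence in promoters and enhancers. FOS-family proteins bind DNA as dimers with a JUN-family protein, while JUN-family proteins can also pair with each other. In keratinocytes AP-1 is known for its part in proliferation, barrier gene expression, stress responses and wound repair.

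Promoter sequences were set beside the regions, since 13.1% of the very wide regions (222) held a listed gene start. The share was 6.40% in regions over 900 and under 1400 bp and 4.42% in regions of 600 to 900 bp. A longer interval holds more starts by its length alone, and these shares were not corrected for it. They are shares of all autosomal regions of a class, including regions in the part of the genome where no listed starts were used. RefSeq promoter windows of GRCh38.p14, running from 250 bases before to 50 after a start, lay wholly inside a very wide region for 217 genes. The AP-1 motif TGANTCA, which reads the same on both strands, occurred in the windows of 49 of these genes (22.6%, 17.5 to 28.6). The share over all 15101 protein-coding genes with a window was 7.98%. It was 13.3% for genes whose windows lay in regions of 600 to 900 bp, a difference of 9.32 points (3.76 to 15.7), and 22.3% for regions over 900 and under 1400 bp, a difference of 0.26 points (-5.41 to 6.72). The related element TGACGTCA, with its added central base pair, was found for 5.99% of the genes in very wide regions and 7.05% of those in regions of 600 to 900 bp, against 3.06% of all genes. A match is a description of letters in these windows, and binding at a match was not tested.

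The 4 sequences below are the 250 bases upstream of a start in which 2 motifs stood close together and nearest to the FOSL2 summit, the position of highest signal; capitals mark the TGANTCA matches, and each sequence reads 5′ to 3′ on the gene's strand in GRCh38.p14 from RefSeq.
MBNL2 (chr13:97141584-97141833, plus strand): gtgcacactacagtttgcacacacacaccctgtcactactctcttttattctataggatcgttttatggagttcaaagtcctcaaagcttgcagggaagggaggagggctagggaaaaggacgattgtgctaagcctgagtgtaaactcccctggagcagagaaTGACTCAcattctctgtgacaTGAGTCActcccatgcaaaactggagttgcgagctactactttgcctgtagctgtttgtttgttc
MEF2C (chr5:88785512-88785761, minus strand): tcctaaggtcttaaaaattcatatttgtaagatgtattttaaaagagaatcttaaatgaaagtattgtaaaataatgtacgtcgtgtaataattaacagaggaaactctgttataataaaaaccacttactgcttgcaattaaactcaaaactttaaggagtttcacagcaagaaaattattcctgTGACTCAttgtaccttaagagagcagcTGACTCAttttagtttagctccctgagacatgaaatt
RTN4 (chr2:55051273-55051522, minus strand): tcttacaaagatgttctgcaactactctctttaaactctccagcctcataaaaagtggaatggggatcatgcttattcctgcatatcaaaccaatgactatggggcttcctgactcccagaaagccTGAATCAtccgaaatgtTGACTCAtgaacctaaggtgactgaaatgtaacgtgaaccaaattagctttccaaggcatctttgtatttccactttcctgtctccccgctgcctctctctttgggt
EIF5 (chr14:103334638-103334887, plus strand): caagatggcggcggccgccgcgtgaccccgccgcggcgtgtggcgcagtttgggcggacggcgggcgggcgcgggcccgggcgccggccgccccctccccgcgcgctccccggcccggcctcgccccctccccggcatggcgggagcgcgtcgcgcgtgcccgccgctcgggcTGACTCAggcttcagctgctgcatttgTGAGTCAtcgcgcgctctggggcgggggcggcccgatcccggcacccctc

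MBNL2, which encodes a splicing regulator, had its motifs beginning 86 and 65 bases upstream of the start, and the nearer motif centre lay 2 bp from the summit of a region of 1400 bp. In MEF2C, a transcription factor gene of muscle, neural and other lineages, the motifs began 64 and 37 bases upstream, and the nearer centre was 9 bp from the summit. RTN4, the gene of the endoplasmic reticulum protein reticulon 4, had motifs at 124 and 107 bases upstream, 15 bp from the summit at the nearer centre. EIF5, which encodes a translation initiation factor, had them at 77 and 50 bases upstream, 22 bp from the summit. Each of these regions met 1 JUNB region: the fold enrichments of FOSL2 and JUNB were 9.91 and 11.1 at MBNL2, 7.78 and 8.06 at MEF2C, 6.22 and 6.46 at RTN4, and 9.65 and 8.15 at EIF5. A pair of motifs did not always lie at the summit: in the window of CD59, a complement inhibitor gene, the nearer of 2 motifs was 470 bp from it.

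Very wide regions were stronger than regions of 600 to 900 bp but not the strongest of the list. Fold enrichment, the authors' ratio of signal over background at a region, had a median of 8.03 (quartiles 6.76 and 9.24, range 3.05 to 14.8). The median was 6.59 (5.24 and 8.24) in regions of 600 to 900 bp and 8.93 (7.29 and 10.3) in regions over 900 and under 1400 bp. The highest value was 19.6 in regions of 600 to 900 bp and 38.5 over all autosomal FOSL2 regions. Of the very wide regions 90.1% were above the median fold enrichment of all autosomal FOSL2 regions, yet only 11.6% were among the 10% of highest fold enrichment, where 29.7% of the regions over 900 and under 1400 bp were found.

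The deposited significance ordered the classes differently. The median −log10 p was 128 in very wide regions, 105 in regions over 900 and under 1400 bp and 44.1 in regions of 600 to 900 bp. Among the 10% of highest −log10 p were 51.0%, 34.4% and 2.92% of these classes. Every very wide region had a −log10 q of at least 11.9.

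Width was concentrated near the lower limit. The median was 1518 bp (quartiles 1451 and 1650, maximum 2452 bp), 727 regions (42.7%) were under 1500 bp, and 59 (3.47%) reached 2000 bp. Within the class the wider regions had lower fold enrichment: the median was 8.34 from 1400 bp, 7.82 from 1600 bp, 7.02 from 1800 bp and 6.69 from 2000 bp. It had been highest, at 9.15, from 1000 bp. Across the limit the values ran on, with a median of 8.46 in the 103 regions of 1400 to 1409 bp and 8.75 in the 81 regions of 1390 to 1399 bp.

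**Figure D1:**
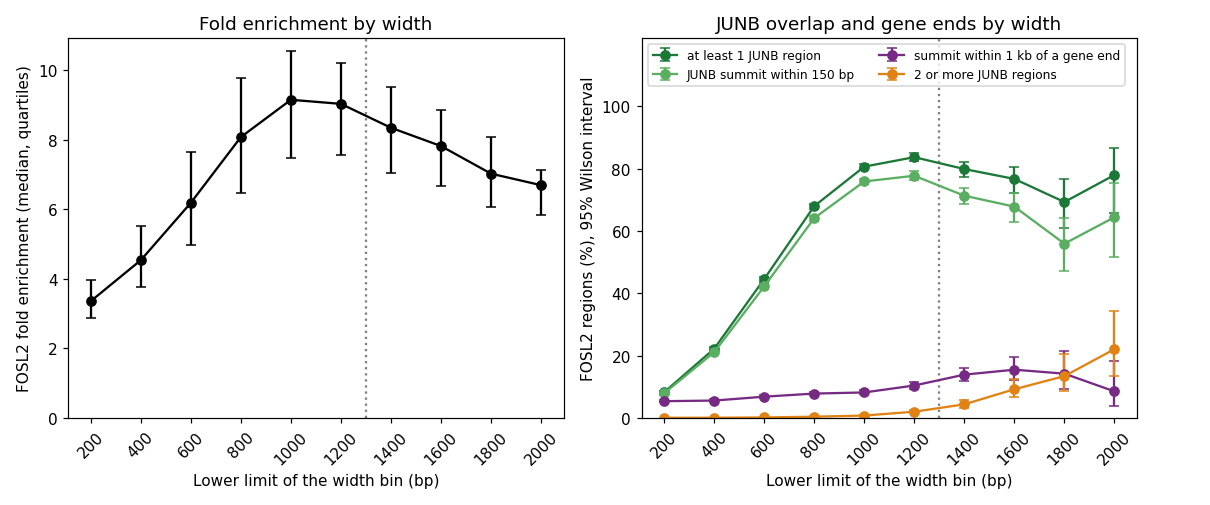
FOSL2 fold enrichment (left; median, bars to the quartiles) and the shares of FOSL2 regions with JUNB or near a gene end (right; %, bars are 95% Wilson intervals), by the lower limit of the width bin in bp; bins to the right of the dotted line are the very wide regions and the last bin holds all regions of at least 2000 bp. Median fold enrichment is highest from 1000 bp and falls to 6.69 in the last bin, while the share with 2 or more JUNB regions rises to 22.0%.

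The signal within a very wide region was less centred. Its summit lay between 40 and 60% of the width in 36.6% of very wide regions and in 65.7% of regions of 600 to 900 bp. A median of 571 bp separated the summit from the nearer edge. Since summit and width come from the same signal, this describes the class and tests nothing about it.

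**Figure D2:**
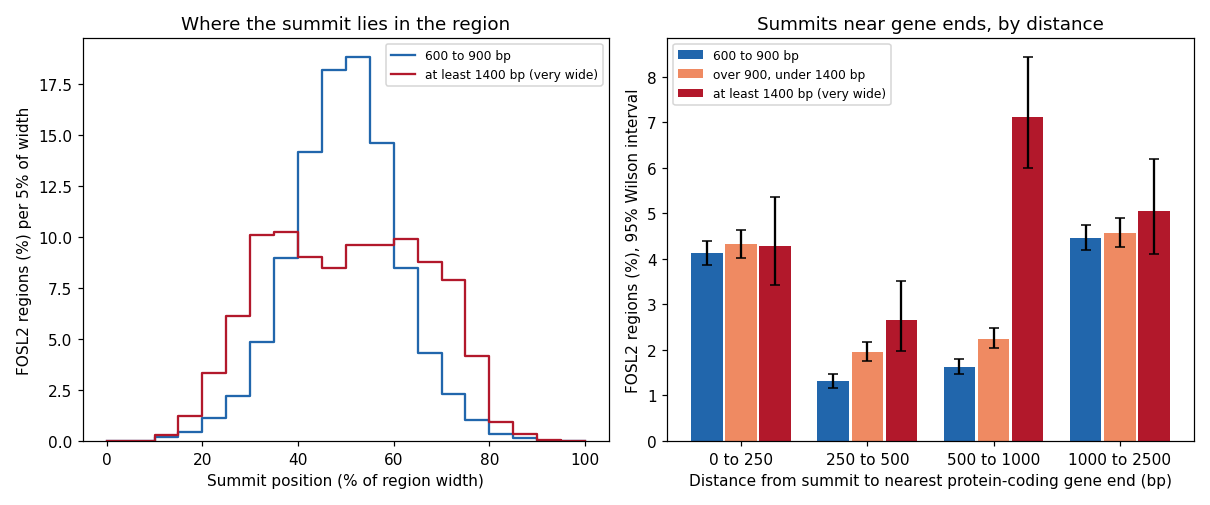
Left: position of the summit as % of the region's width, as the share of regions (%) in each 5% step; right: share of regions (%) with the summit at each distance in bp from the nearest end of a protein-coding gene, for 3 width classes, with 95% Wilson intervals. Very wide summits are spread over the middle of the region, and their share stands apart from both other classes at 500 to 1000 bp from a gene end (7.11% against 2.25% and 1.62%).

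None of the 10 widest regions had its nearest gene among the 11 lists of keratinocyte structure and signalling genes that were fixed for comparison. The share over all very wide regions was also small, at 5.47%. The widest, at chr16:3020554-3023005, spanned 2452 bp with its summit 679 bp from an end of TNFRSF12A, the receptor gene of the cytokine TWEAK. Its fold enrichment was 4.87, and it met no JUNB region. Next came a region of 2445 bp nearest to KLF12, a Krüppel-like repressor gene whose end was 256145 bp away, and 1 of 2437 bp inside SH3BP4, a gene of endocytic sorting. The others of the 10 widest were nearest to GRID1 (a glutamate receptor subunit), PITX1 (a homeobox factor), IGF2R (the mannose 6-phosphate receptor), STX3 (a syntaxin of membrane fusion), SPAG6 (a sperm flagellum protein), MMP2 (a gelatinase) and ARHGEF28 (a guanine nucleotide exchange factor), at 2337 to 2414 bp. Their fold enrichment ran from 5.19 at GRID1 to 8.21 at IGF2R. Of the 10 widest, those at TNFRSF12A, SH3BP4 and IGF2R had no JUNB region, that at ARHGEF28 had 2, and the other 6 had 1.

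The strongest member lay inside UBE2L3, a ubiquitin-conjugating enzyme gene, at chr22:21555341-21556801. Its FOSL2 fold enrichment was 14.8 and its −log10 p 258, but it met no JUNB region, and the nearest JUNB summit was 35065 bp away. The region of second highest fold enrichment, 13.0, was nearest to NKX6-1, a homeobox gene of pancreatic beta cells, and met a JUNB region of 333 bp with its summit 711 bp from that of FOSL2. The region next in order lay 25221 bp from an end of IER3, an immediate early gene of the MAPK response. There FOSL2 and JUNB stood at fold enrichments of 12.8 and 12.6, with summits 10 bp apart. The others of the 10 strongest, at 11.9 to 12.1, were nearest to PDE7A (a phosphodiesterase), H4C8 (a histone H4 gene), SLC4A3 (an anion exchanger), FAM241A, SNTB1 (a syntrophin), SLIT2 (a guidance ligand) and GSAP. Of these the region at FAM241A also lacked a JUNB region. High FOSL2 fold enrichment in a very wide region therefore came both with and without JUNB.

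The 5 weakest members stood at TSEN34 (3.05), a subunit gene of the tRNA splicing endonuclease, ZNF524 (3.39), NIBAN2 (3.57), PRSS2 (3.59), a trypsinogen gene, and ASXL1 (3.61), a chromatin regulator gene. Those at TSEN34, ZNF524 and ASXL1 had their summits 755, 24 and 598 bp from a gene end. The regions other than TSEN34's met 1 JUNB region each, with JUNB fold enrichments of 3.95 to 4.74.

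**Figure D3:**
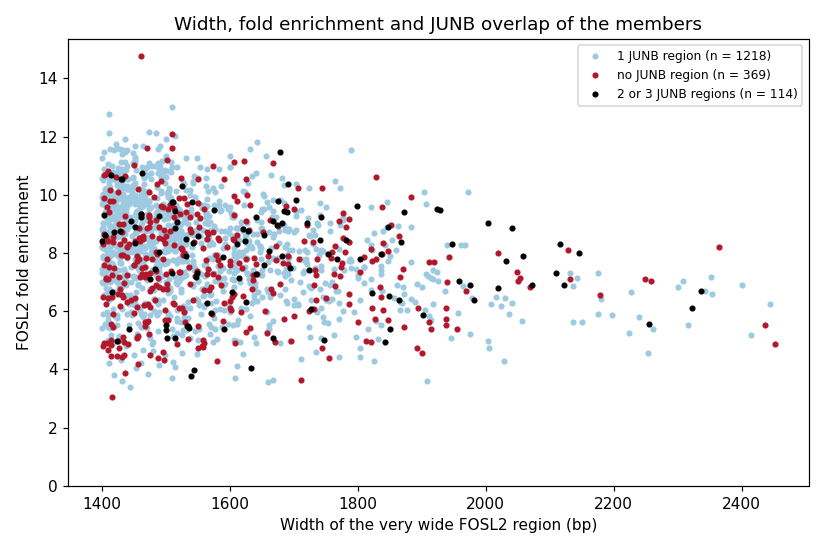
Width in bp (horizontal) against FOSL2 fold enrichment (vertical) of the 1701 very wide regions, each point 1 region, coloured by the number of JUNB regions it met (1218 with 1, 369 with none, 114 with 2 or 3). Most points lie below 1650 bp, the strongest region is without JUNB, and the 3 JUNB classes overlap over most of the range.

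JUNB was mapped in separate libraries and its list played no part in the choice of members. Of the very wide regions 1332 (78.3%, 76.3 to 80.2) shared at least 1 bp with a JUNB region, where 41.4% of all autosomal FOSL2 regions did. No JUNB region was met by 369 (21.7%), 1 was met by 1218 (71.6%), 2 by 112 (6.58%) and 3 by 2 regions. The share with at least 1 was 50.3% in regions of 600 to 900 bp, 28.0 points lower (interval of the difference 25.9 to 29.99). It was 78.7% in regions over 900 and under 1400 bp, where the difference of -0.39 points had an interval from -2.51 to 1.60.

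A wider region meets more by its length alone, so the share was also taken in a fixed window of 700 bp to each side of the FOSL2 summit. In that window 78.0% of very wide regions and 50.8% of those of 600 to 900 bp met JUNB, a difference of 27.2 points (25.1 to 29.2). A JUNB summit lay within 150 bp of the FOSL2 summit in 69.1% of very wide regions, where the share over all FOSL2 regions was 38.9%. The share was 47.6% in regions of 600 to 900 bp, a difference of 21.6 points (19.2 to 23.8), and 73.9% in regions over 900 and under 1400 bp, a difference of -4.78 points (-7.11 to -2.53). Within bands of FOSL2 fold enrichment the very wide regions and those over 900 and under 1400 bp were close by this measure: 48.9% and 47.6% over 4 and up to 6, 61.9% and 64.2% from 6 to 8, 78.3% and 78.7% from 8 to 10, and 86.5% in both from 10 to 12.

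FOSL2 strength moved with the share with JUNB. At a FOSL2 fold enrichment over 4 and up to 6, JUNB was met by 162 of 235 very wide regions (68.9%), 60.03% of regions over 900 and under 1400 bp and 39.8% of regions of 600 to 900 bp. From 8 to 10 the shares were 82.8%, 82.3% and 63.0%, and from 10 to 12 they were 87.0%, 87.8% and 75.6%. Against regions of 600 to 900 bp the share was thus higher in each of the bands from 4 to 12. Against regions over 900 and under 1400 bp the intervals overlapped in the bands from 6 to 12. Over 12 there were only 8 very wide regions, of which 6 met JUNB.

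**Figure D4:**
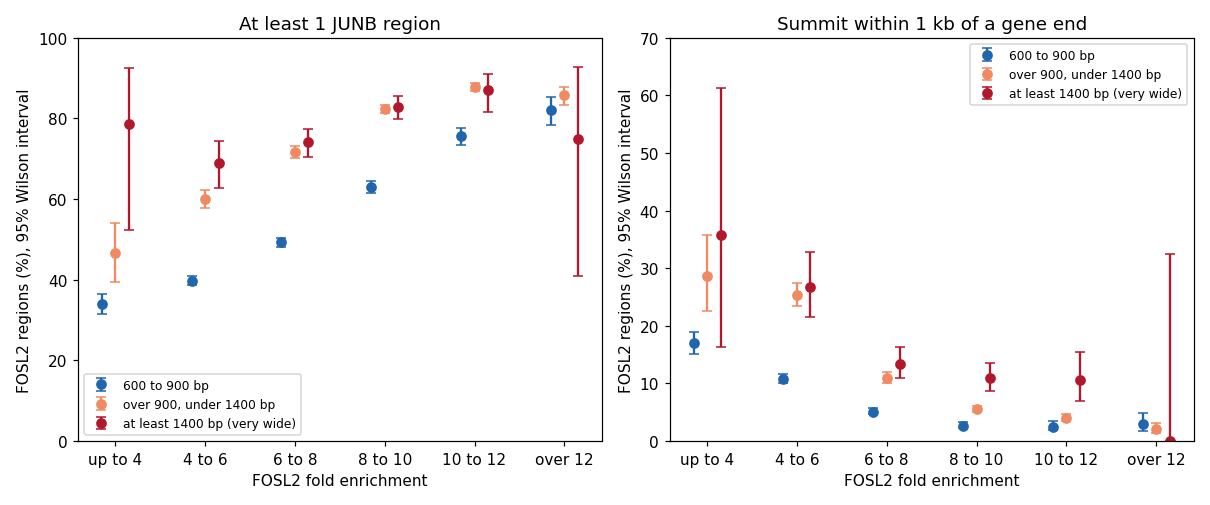
Share of FOSL2 regions (%) with at least 1 JUNB region (left) and with the summit within 1000 bp of a protein-coding gene end (right) by band of FOSL2 fold enrichment, for 3 width classes; points are shares and bars 95% Wilson intervals. From 4 to 12 the very wide class lies above the 600 to 900 bp class in both panels (82.8% against 63.0% with JUNB and 10.9% against 2.66% near a gene end from 8 to 10).

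The JUNB regions met were wide and strong as well. In very wide FOSL2 regions the JUNB region was a median of 1195 bp wide with a JUNB fold enrichment of 7.01 (quartiles 5.75 and 8.25). In regions of 600 to 900 bp the medians were 532 bp and 4.71, and in regions over 900 and under 1400 bp they were 795 bp and 6.57. JUNB covered a median of 79.7% of the very wide region. Of the 1332 regions with JUNB, 1317 (98.9%) had the FOSL2 summit inside a JUNB region. The summits of both factors lay a median of 26 bp apart, against 33 bp in regions of 600 to 900 bp. A longer tail was present, since 113 pairs (8.48%) were over 250 bp apart, against 1.61% and 2.89% in the narrower classes. Across the 1332 regions the log2 fold enrichments of both factors correlated with a Pearson coefficient of 0.70 and a Spearman coefficient of 0.71, given as a description of regions that share the same libraries.

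Width was shared between the lists. JUNB regions of at least 1400 bp numbered 480, and 325 of them (67.7%) met a very wide FOSL2 region, where 3.68% of all autosomal JUNB regions did. Seen from FOSL2, 325 of the 1701 very wide regions (19.1%) met a JUNB region of that width, as did 67 (0.396%) of the regions over 900 and under 1400 bp and 4 (0.0184%) of those of 600 to 900 bp.

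Several JUNB regions within 1 FOSL2 region were rare in the list and less rare here. At least 2 were met by 114 very wide regions (6.70%, 5.61 to 7.99), where 0.405% of all FOSL2 regions met as many. The count was 35 (0.161%) in regions of 600 to 900 bp, 6.54 points lower (5.45 to 7.83), and the share was 0.863% in regions over 900 and under 1400 bp, 5.84 points lower (4.73 to 7.13). In the fixed window of 700 bp the shares were 5.35%, 0.998% and 1.15%. Within the class the share rose to 13 of the 59 regions of at least 2000 bp (22.0%).

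In these 114 regions the outer JUNB summits were a median of 852.5 bp apart (quartiles 727 and 958.75 bp). The stronger JUNB region had a median of 1.83 times the fold enrichment of the weaker (quartiles 1.30 and 2.31, maximum 4.05). FOSL2 fold enrichment was like that of the class, with a median of 8.02. The 2 regions with 3 JUNB regions both lay outside genes. At chr11:28834767-28836785, 303462 bp from an end of METTL15, a mitochondrial rRNA methyltransferase gene, JUNB fold enrichments of 3.41, 5.08 and 5.84 stood under a FOSL2 value of 6.80. At chr13:52925674-52927495, 77490 bp from PCDH8, a protocadherin gene, they were 6.42, 3.03 and 3.03 under a FOSL2 value of 6.61.

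The 369 very wide regions without JUNB were somewhat weaker and not narrower. Their median FOSL2 fold enrichment was 7.51, against 8.18 with JUNB, and their median width 1538 bp, against 1515 bp. The nearest JUNB summit was a median of 12875 bp away and over 10 kb away for 216 of them (58.5%, 53.4 to 63.5). It was nearer than at other FOSL2 regions without JUNB, where the median was 20228.5 bp (70.3% over 10 kb) at 600 to 900 bp and 19000.5 bp (71.2%) over 900 and under 1400 bp. After UBE2L3 and FAM241A the strongest were nearest to ADCK1 (11.6), a mitochondrial kinase-like gene, RPEL1 (11.6), a ribulose-phosphate epimerase-like gene, and NUCKS1 (11.2), a gene of a nuclear DNA-binding protein. The nearest JUNB summits there were 130088, 13551 and 7731 bp away.

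Very wide regions lay more often near a gene end than narrower ones, and less often inside a gene away from its ends. The summit was within 1000 bp of a protein-coding gene's end in 239 (14.1%, 12.5 to 15.8), where 6.81% of all FOSL2 summits were. The share was 7.05% in regions of 600 to 900 bp, a difference of 7.003 points (5.39 to 8.77), and 8.51% in regions over 900 and under 1400 bp, a difference of 5.54 points (3.91 to 7.32). Farther than 100 kb from any protein-coding gene were 11.7%, against 16.5% of regions of 600 to 900 bp, a difference of -4.81 points (-6.34 to -3.12). Apart from the 239 near an end, 712 (41.9%) had the summit inside a gene. That was 46.4% in regions of 600 to 900 bp, a difference of -4.56 points (-6.97 to -2.11). In regions over 900 and under 1400 bp it was 45.9%, a difference of -4.00 points (-6.44 to -1.52). Outside genes were 750 (44.1%), against 46.5% of regions of 600 to 900 bp, a difference of -2.44 points (-4.88 to 0.02). Positions in exons and introns were not analysed here.

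The difference near gene ends lay mostly at 500 to 1000 bp. Within 250 bp of an end were 73 very wide summits (4.29%), 0.17 points more than in regions of 600 to 900 bp (interval -0.73 to 1.27). From 500 to 1000 bp there were 121 (7.11%), against 1.62% and 2.25% in the narrower classes, with differences of 5.49 points (4.35 to 6.82) and 4.87 points (3.72 to 6.20). From 1000 to 2500 bp the share was 5.06%, against 4.45%. With strand taken from the promoter table, 48 of 1620 summits lay 500 to 1000 bp upstream of a listed start and 52 as far downstream. The excess thus stood on both sides of the start. JUNB was met by 62.8% of the 121 regions with the summit at 500 to 1000 bp, by 70.3% of the 118 within 500 bp and by 80.2% of the 1462 farther away.

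In the bands of fold enrichment from 4 to 12, weaker regions were more often near gene ends. Among very wide regions the share within 1000 bp of an end was 26.8% at a fold enrichment over 4 and up to 6, 13.4% from 6 to 8, 10.9% from 8 to 10 and 10.5% from 10 to 12. In the same bands it was 25.4%, 10.99%, 5.53% and 4.01% in regions over 900 and under 1400 bp, whose intervals overlapped those of the very wide regions in the bands from 4 to 8. It was 10.8%, 5.10%, 2.66% and 2.49% in regions of 600 to 900 bp. Regions without JUNB were more often near a gene end in the wider classes: of the very wide regions without JUNB 80 (21.7%) were near an end, against 159 (11.9%) of those with JUNB, a difference of 9.74 points (5.43 to 14.5). In regions over 900 and under 1400 bp the shares were 11.4% and 7.72%, in the same direction. In regions of 600 to 900 bp they were 6.03% and 8.05%, a difference of -2.02 points (-2.70 to -1.34).

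Neighbours of the very wide regions were counted among all FOSL2 regions and within the class. The gap to the nearest other FOSL2 region was a median of 7869 bp, against 7664 bp for regions of 600 to 900 bp. Another FOSL2 region lay within 1000 bp of 6.76%, against 10.1%, a difference of -3.31 points (-4.48 to -1.96). Against the 7.61% of regions over 900 and under 1400 bp the difference was -0.85 points (-2.02 to 0.50). Another very wide region was within 50 kb for 227 (13.3%). The class made up 2.31% of all autosomal FOSL2 regions, and a median of 5 other FOSL2 regions lay within 50 kb of its summits. The share to be expected from these values was not worked out. By chromosome the very wide regions made up from 1.16% of the FOSL2 regions on chromosome 4 (36 regions) to 3.05% on chromosome 20 (64 regions), and chromosome 1 held the most, 175.

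The nearest genes were many and mostly met once. The 1701 regions had 1489 distinct nearest protein-coding genes, of which 1317 were nearest to 1 region, 141 to 2 and 31 to 3 or more. A very wide region lay within 10 kb of an end of 852 of 19126 autosomal protein-coding genes (4.45%), and within 10 kb of any base of the gene for 1308 (6.84%). Of 245 genes in 11 lists of keratinocyte structure and signalling, 27 had a very wide region no farther than 10 kb from an end (11.02%, 7.69 to 15.6), against 4.37% of the other genes, a difference of 6.65 points (3.30 to 11.2). With the whole gene counted it was 43 genes (17.6%). For comparison, 50.6% of the 245 genes and 33.5% of all genes had a region of 600 to 900 bp at this distance. A list of 22 housekeeping genes had 12 (54.5%) with a region of 600 to 900 bp and 1 (4.55%) with a very wide region. In 4 lists of other cell types (melanocyte, fibroblast, T cell and neuron) 5 of 66 genes had a very wide region at this distance (7.58%, 3.28 to 16.5). That interval includes both the 11.02% of the 245 genes and the 4.37% of the other genes. The melanocyte list had 2 of 14 (14.3%, 4.01 to 39.9), and the fibroblast, T cell and neuron lists had 1 of 18, 1 of 17 and 1 of 17. A region of 600 to 900 bp was at this distance for 22.7% of the 66 genes. The nearest gene belonged to the 11 lists for 93 very wide regions (5.47%) and for 3.26% of regions of 600 to 900 bp.

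**Figure D5:**
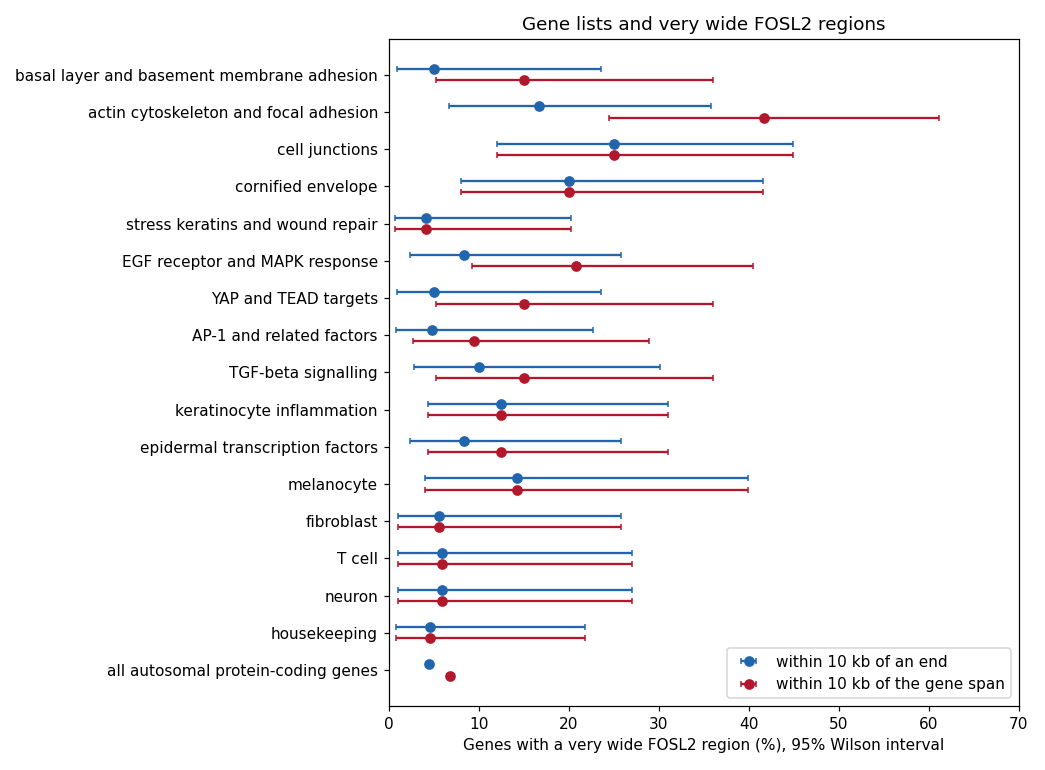
Share of the genes of each list (%) with a very wide FOSL2 region within 10 kb of either end (blue) or of any base of the gene (red), with 95% Wilson intervals; the lowest row is all 19126 autosomal protein-coding genes. Cell junction genes reach 25% at their ends and actin and focal adhesion genes 41.7% over the whole gene, and the intervals of single lists are broad.

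For the gene lists, a region at or near an end is one within 10 kb of it, not within 1000 bp. Cell junction genes held the highest share at their ends, 6 of 24 (25%, 12 to 44.9). They were PKP1, PKP2 and PKP3, the plakophilins of the desmosomal plaque, JUP, which encodes plakoglobin, PERP, a desmosome-associated membrane protein, and OCLN, the tight junction protein occludin. The summit of the widest region at each lay from 114 bp (PERP) to 10406 bp (OCLN) from the gene's end. PKP3 had the widest, 2227 bp at chr11:392879-395105 with the summit 847 bp inside the gene, and fold enrichments of 6.65 for FOSL2 and 7.27 for JUNB. The widest region at each of the 6 genes met 1 JUNB region, with FOSL2 values from 5.97 at PERP to 7.73 at JUP, JUNB values from 6.06 to 7.27 and summits 2 to 104 bp apart. PKP1 had another at its end, at chr1:201289340-201290756, with FOSL2 and JUNB values of 7.504 and 6.24 and both summits at the same base.

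Cornified envelope genes, whose products form the outer barrier of the epidermis, had 4 of 20 (20%, 8.07 to 41.6). PPL, the gene of periplakin, had a region of 2005 bp 7806 bp from its end, with fold enrichments of 4.75 for FOSL2 and 5.91 for JUNB. RPTN, the repetin gene, had 7.25 and 7.01. The regions near CNFN (cornifelin) and TGM1 (transglutaminase 1) were nearer to the genes LIPE and RABGGTA, and that near CNFN met no JUNB region.

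Actin and focal adhesion genes had 4 of 24 at their ends (16.7%) and 10 of 24 with the whole gene counted (41.7%, 24.5 to 61.2). The median length of these genes was 69.6 kb, against 24.5 kb for all genes. At the ends were TES (testin), DIAPH1 (a formin), ANXA2 (annexin A2), whose region of 1865 bp met 2 JUNB regions of 5.02 and 6.15, and RND3 (a small GTPase), whose region met none. Within the genes were ACTN4, MYO1E, VCL, PXN, LPP and TNS3, for alpha-actinin, a myosin, vinculin, paxillin, a LIM protein and a tensin. The widest region in each spanned 1602 to 1978 bp, had a FOSL2 value between 6.45 (PXN) and 9.39 (MYO1E) and met 1 JUNB region. TNS3 held another, of 1687 bp, with 8.80 for FOSL2 and 7.34 for JUNB. At LPP the summit of the widest region was 787 bp from a listed gene start.

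Signalling genes had very wide regions within 10 kb of their ends in smaller numbers. Nearest genes at any distance were also counted by list. A gene can be nearest to several regions, and no intervals were taken for single lists. The EGF receptor and MAPK list held the nearest gene of 15 very wide regions (0.882%, against 0.322% of regions of 600 to 900 bp), and the TGF-beta list that of 14 (0.823%, against 0.313%). For the YAP and TEAD list these shares were 0.470% and 0.290%, and for the AP-1 list 0.176% and 0.175%. For the actin list they were 0.882% (15 regions) and 0.483%, and for cell junctions 0.529% (9 regions) and 0.308%. In the basal layer, melanocyte, fibroblast, neuron and housekeeping lists the share was lower in very wide regions, as 0.235% against 0.280% for the basal layer. At ends, 2 of 24 genes of the EGF receptor and MAPK list had a very wide region. EGR1, an immediate early transcription factor gene, had a region of 1821 bp with its summit 380 bp from the gene and fold enrichments of 7.10 for FOSL2 and 4.90 for JUNB. DUSP1, a MAPK phosphatase gene, had 6.68 and 6.37, with summits 705 bp apart. EGFR itself, the ligand gene TGFA and the inhibitor gene SPRED2 had theirs inside the gene, and that of SPRED2 met 2 JUNB regions of 9.5 and 4.24. The summit at SPRED2 was 9 bp from a listed gene start. In the TGF-beta list SKIL, a SMAD corepressor gene, had a region of 1975 bp 78 bp from its end, and SMAD7, an inhibitor gene of the pathway, had 1 without JUNB. In the YAP and TEAD list AMOTL1, an angiomotin-like gene, had a region of 1906 bp 31 bp from its end, with 7.27 for FOSL2 and 7.35 for JUNB, while TEAD1 and PTPN14 had theirs within the gene. Of 21 AP-1 and related genes FOSB, a FOS-family member, had 1 near its end, and ATF3 had 1 within 10 kb of the gene.

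Of the inflammation genes 3 of 24 had a very wide region within 10 kb of an end. TNFAIP3, an inhibitor gene of NF-κB signalling, had 9.44 for FOSL2 and 8.78 for JUNB with summits 1 bp apart. IL18 had 5.99 and 5.57, and IL1RN, the gene of the interleukin 1 receptor antagonist, had 6.99 and no JUNB region, with the nearest JUNB summit 6850 bp away. Among epidermal transcription factors the count was 2 of 24, HES1, a Notch target with a region of 1400 bp, and OVOL1, 6093 bp from the summit of a region without JUNB that lay 6 bp from an end of AP5B1. GRHL1, of the grainyhead family, had 1 within the gene.

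The lists of basal layer and of stress keratins and wound repair had 1 of 20 and 1 of 24 at ends, close to the 4.45% of all genes. KRT15, a basal keratin gene, shared its region with the nearer KRT19, and SERPINB2, a protease inhibitor gene, had a region of 1518 bp. LAMA3, which encodes a laminin chain of the epidermal basement membrane, had its region inside the gene, at a FOSL2 value of 9.61, and it met no JUNB region. In the lists of other cell types RAB38 and PMEL (melanocyte), FBLN1 (fibroblast), TRAT1 (T cell) and TUBB3 (neuron) had a very wide region within 10 kb of an end. FOSL2 values ran from 5.36 at RAB38 to 10.5 at TRAT1. The region near PMEL was nearer to RAB5B, with its summit 163 bp from that gene and 7077 bp from PMEL.

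Of all protein-coding genes 7 had 3 or more very wide regions within 10 kb of the gene. MAML2, a coactivator gene of Notch signalling, had 4 over a gene of 366.6 kb, with widths of 1407 to 1912 bp and FOSL2 values of 4.98 to 9.37; 3 of them met JUNB. PRKCE, a protein kinase C gene, had 4 over 536.7 kb, all with JUNB, at FOSL2 values of 6.12 to 10.5. PRKCH, the protein kinase C eta gene, had 3, as did AOPEP (an aminopeptidase), FTO (an RNA demethylase) and MBNL1 (a splicing regulator). PKP1 was the shortest of the 7 genes at 49.5 kb, and its 3 regions, at FOSL2 values of 7.72, 7.504 and 3.69, were 3 of the 6 FOSL2 regions there. In MAML2 there were 40 FOSL2 regions in all, and in the other 5 genes 16 to 38.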

How the data were processed

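FOSL2 and JUNB binding was measured by ChIP-seq in HaCaT cells, with 3 libraries per factor. The submitters' processing notes name Bowtie2, MACS2, SAMtools 1.8, Picard 1.89 and deepTools and the build hg38; their order and options, the control and the rule that combined the libraries were not given in the sources used here. The authors deposited 1 list of narrow peaks per factor. The deposited score was 10 times the −log10 p (tolerance 1). The fold enrichment that the authors deposited is a linear ratio, and their deposited −log10 p and −log10 q values were read as written. No regions overlapped within a list. Coordinates count from 1.

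Width was column 3 minus column 2. Gene positions came from the RefSeq table of GRCh38.p14, which shares coordinates with hg38 and has no strand; the start and strand of 15101 of 19126 autosomal protein-coding genes came from RefSeq promoter windows, with none used on chromosome 8. Overlap meant at least 1 bp. Of 338 list genes 333 matched on the autosomes. No test was run, because the lists hold no value per library. Python 3.11.15, pandas 2.3.3, NumPy 2.4.6, SciPy 1.17.1 and Matplotlib 3.10.9 were used, and the code for overlaps was tested on simulated data.

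Named genes were the nearest genes of the 10 widest, 10 strongest and 5 weakest regions, of regions with 3 or more JUNB regions and of the 5 strongest without JUNB; in each list the 4 genes with the widest region within 10 kb; and genes with 3 or more regions. Genes with a region only within the gene, genes beyond 4 in a list, and the promoters shown, were named after their values were seen. Some genes that the rule selects have been left out of the text. The members and lists were chosen with earlier results of these data known.

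Alternatives were limits of 1200 and 1600 bp, a −log10 q of at least 10, other overlap rules, the class over 900 and under 1400 bp, distances of 500 and 2500 bp from gene ends, the ends of every annotated gene, and 5 and 50 kb for the lists. The window of 700 bp, summits within 150 bp, listed starts and the whole gene were chosen after seeing the data.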

Additional observations from a re-analysis of the deposited data

How the results depend on the processing

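The 5 main differences were between very wide regions and regions of 600 to 900 bp, except that of the gene lists, which set list genes against the other genes. Of the alternatives to them, 18 moved the value by less than its counting error, 15 by more, and 2 turned its direction. The turned values were both against regions over 900 and under 1400 bp: a ratio of median fold enrichment of 0.899 in place of 1.22, and a difference in the share with JUNB of -0.39 points in place of 28.0. With a lower limit of 1200 bp the fold ratio was 1.31, the share with JUNB 31.6 points higher, that with 2 or more JUNB regions 3.38, that near gene ends 4.55 and the share of list genes 15.5. With 1600 bp the fold ratio was 1.13 and the differences 24.9 points with JUNB, 11.3 with 2 or more and 1.78 for list genes. Where both lists were limited to a −log10 q of at least 10, the difference was 41.0 points with JUNB and 3.46 with 2 or more. Other measures gave 21.6 points with JUNB summits within 150 bp, 4.35 with 2 or more in the window of 700 bp, 1.51 within 500 bp of a gene end (main value 7.003) and 14.1 for list genes within 50 kb (main value 6.65). Of 96 values for single gene lists 8 moved by more than their counting error. For the gene lists the limit of −log10 q could not change a value, because every very wide region passed it. Those repeated values are included in the counts of unmoved values and unchanged signs given here. In the 13 lists whose interval included 0, 17 of 78 values changed sign, and in the other 3 (cell junctions, cornified envelope, actin and focal adhesion) 0 of 18 did. Those 3 were set apart by their main values. With 1600 bp and within 5 kb the intervals of the cornified envelope and actin lists included 0. The cause of these shifts was not tested.

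No paired analysis was possible because each factor had a single list for its 3 libraries, and for the same reason leaving out libraries was not done. Depth is unknown, so no limit of detection is given for either list. Whether very wide intervals hold several adjoining sites was not tested, and genome sequence and signal tracks were not used here.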
